A study of Rattus norvegicus with 12 samples.

Results

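The 10 genes described here encode enzymes of asparagine, proline, serine and mitochondrial one-carbon synthesis: Asns, Pycr1, Aldh18a1, Phgdh, Psat1, Psph, Shmt2, Mthfd2, Mthfd1l and Aldh1l2. They are 10 of the 15284 named genes on the array and of the 12203 named genes that passed the filter on dim probes, and 20 probes match them by RefSeq accession. The genes were chosen by measured values, since the treatment effect on these same arrays was in view when the list was drawn up. The differences between treated and control rats are therefore given for them as a description, without a test. Tests were made on the difference between the 2 experiments and on genes of neighbouring pathways. These tests and lists were also chosen with earlier results of these arrays known.

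Each of these routes builds material that a cell can also take up. Asparagine synthetase (Asns) makes asparagine from aspartate with nitrogen taken from glutamine. Aldh18a1 starts proline synthesis from glutamate and Pycr1 ends it, both in mitochondria. Phgdh, Psat1 and Psph turn a glycolytic intermediate into serine, and Shmt2, Mthfd2, Mthfd1l and Aldh1l2 handle the one-carbon unit of serine on folate inside mitochondria, which ends as formate or carbon dioxide. The kidney, with the proximal tubule as its main site, is known to make serine and release it into the blood. Genes of each of these routes are known targets of the transcription factor ATF4 in cultured cells, where lack of amino acids or stress in the endoplasmic reticulum raises the amount of ATF4 protein.

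Renal cortex of male Sprague-Dawley rats (Crl:CD(SD), bought at 5 weeks of age) was hybridised to 1-colour Agilent arrays, with 1 array for each of 12 rats. BDCM (bromodichloromethane), which forms when drinking water is chlorinated, was given at 200 mg/kg per day for 4 weeks, and control rats received corn oil. All rats were killed by bleeding 24 h after the last dose, under CO2-O2 in one experiment (B92) and under isoflurane in the other (B103). The 4 groups of 3 rats are BDCM under CO2-O2, BDCM under isoflurane, corn oil under CO2-O2 and corn oil under isoflurane. Values are log2 of the processed signal relative to the 75th percentile of the same array, so that 1 unit is a doubling. They compare rats for one probe and do not rank genes by their amount of RNA. The tissue is a mixture of cells, and fewer cells of a type and less RNA per cell cannot be told apart.

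Between 41529 and 44714 probes were well above background on each array, and the 75th percentile of the signal lay between 1079.5 and 1476.5 intensity units. The sample size of 3 arrays per group limits the precision. All 8 proximal tubule markers were well above background on all 12 arrays of this tissue labelled renal cortex. Their summed linear signal, in multiples of the 75th percentile, was 661.6 to 771.9 in BDCM rats and 1083 to 1142 in oil rats under CO2-O2, and 618.8 to 945.8 in BDCM rats and 1248 to 1343 in oil rats under isoflurane. The 10 hepatocyte markers summed to 20.2 to 24.4 in BDCM rats and 9.60 to 20.3 in oil rats under CO2-O2, and to 11.5 to 14.1 in BDCM rats and 4.85 to 7.65 in oil rats under isoflurane. Of these 10 markers 5 were well above background on all 12 arrays, and most of the sum is the signal of transferrin (Tf), which rose by 1.00 ± 0.18, while Apob fell by 2.27 ± 0.26 and Ahsg by 0.39 ± 0.08 (limma, adjusted p = 0.00192, 1.08e-04 and 0.00354). Albumin (Alb) was -0.69 in BDCM rat 1 and -5.79 and -8.07 in BDCM rats 2 and 3 under isoflurane, and -2.97 in oil rat 3 against -6.28 and -5.72 in oil rats 1 and 2. Under CO2-O2 albumin was 0.60, 1.19 and 1.49 in BDCM rats and 0.79, 1.66 and -1.44 in oil rats. The 6 leukocyte markers tested summed to 72.2 to 124.4 over all BDCM rats and 68.0 to 111.6 over all oil rats. The part of these shifts in the values below was not tested, and values without the 2 isoflurane rats of high albumin are given in the closing section. Those 2 rats are high only within their isoflurane groups, and all CO2-O2 rats are kept there.

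Asns was high in every BDCM rat. Its normalised signal was 2.97, 3.16 and 2.93 in BDCM rats and -0.86, -0.89 and -0.84 in oil rats of the CO2-O2 experiment. In the isoflurane experiment it was 3.23, 3.86 and 2.88 in BDCM rats and -0.70, -0.93 and -0.85 in oil rats. The groups were far apart in both experiments, and the oil rats of both lay within a narrow band. The difference averaged over both experiments was 4.02 ± 0.14 (SE, n = 6 rats per treatment), which is 16.2-fold. Among 12203 named genes this was rank 20 from the highest difference.

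The proline pair was also higher with BDCM. Pycr1, the last enzyme of the route, had 1.12, 2.17 and 1.66 in BDCM rats and -4.52, -4.69 and -4.39 in oil rats under CO2-O2. Under isoflurane Pycr1 had 1.63, 2.62 and 1.92 in BDCM rats and -4.55, -4.30 and -4.58 in oil rats. The oil rats sat near the dim end of the array and the BDCM rats above the 75th percentile, with no overlap. The mean difference of 6.36 ± 0.20, or 81.9-fold, was rank 3 of the named genes. The same probe was well above background on all 12 arrays, but with normexp background correction the difference was 34.5-fold. A second Pycr1 probe differed by 5.64 ± 0.20, and was well above background in 2 of 3 oil rats under CO2-O2 and in 1 of 3 under isoflurane. The third and dimmest differed by only 1.76 ± 0.11, or 3.38-fold. Under CO2-O2 it was well above background in 2 of 3 oil rats and differed by 2.81-fold. That became 2.53-fold with dim oil signals raised to the lowest one well above background. Under isoflurane it was not well above background in any of the 3 oil rats, and there BDCM was at least 3.11-fold higher.

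Aldh18a1, which makes the proline precursor from glutamate, had -0.02, 0.46 and 0.14 in BDCM rats and -1.88, -2.14 and -2.10 in oil rats under CO2-O2. In the isoflurane experiment Aldh18a1 had 0.38, 1.38 and 0.10 in BDCM rats and -1.94, -2.02 and -1.96 in oil rats. Every BDCM rat lay above every oil rat of both experiments. The mean difference was 2.41 ± 0.19, or 5.33-fold, and a second probe gave 1.84 ± 0.17.

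The core of the DNA element that ATF4 binds with C/EBP partners was searched as TGATGNAA on both strands of RefSeq promoter windows (build GRCr8, 250 bases before to 50 after the start). Of the 10 genes, 8 have a window in the table, and only the first window of each listed gene was searched. Among these 8 windows that of Pycr1 was the one with a match, 131 bases before its start. The core occurs in 1332 of all 33469 promoter windows (3.98%), a share that counts every window of 27457 genes. The Pycr1 and Asns windows are shown whole because these genes had the largest differences, and 48-base stretches are shown for the 3 response regulators of the 14 with a window that hold the core. Capitals mark the core, all sequences run 5′ to 3′ along the strand of the gene, and the core of Nupr1, Trib3 and Chac1 lies on the opposite strand.
Pycr1 (chr10:106420763-106421062, minus strand): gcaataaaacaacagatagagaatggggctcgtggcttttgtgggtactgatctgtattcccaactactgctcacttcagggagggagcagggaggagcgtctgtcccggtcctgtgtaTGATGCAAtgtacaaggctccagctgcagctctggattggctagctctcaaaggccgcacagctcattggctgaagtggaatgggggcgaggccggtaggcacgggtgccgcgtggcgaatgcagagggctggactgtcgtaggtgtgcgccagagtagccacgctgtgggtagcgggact
Asns (chr4:36769366-36769665, minus strand): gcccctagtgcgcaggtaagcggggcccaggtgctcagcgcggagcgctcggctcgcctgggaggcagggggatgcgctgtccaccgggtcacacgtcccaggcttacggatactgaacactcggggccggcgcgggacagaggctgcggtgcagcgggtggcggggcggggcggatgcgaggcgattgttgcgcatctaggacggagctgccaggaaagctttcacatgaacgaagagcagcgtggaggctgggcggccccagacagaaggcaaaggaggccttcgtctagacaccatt
Nupr1 (chr1:190645929-190645976, minus strand): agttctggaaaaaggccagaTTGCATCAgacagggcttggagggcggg
Trib3 (chr3:161275527-161275574, minus strand): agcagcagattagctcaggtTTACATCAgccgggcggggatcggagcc
Chac1 (chr3:126795944-126795991, plus strand): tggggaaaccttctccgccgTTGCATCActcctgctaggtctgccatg
The Nupr1, Trib3 and Chac1 cores begin 55, 21 and 167 bases before the start. The core also lies 167 bases before the start of the aspartate aminotransferase Got1, 1 of 10 windows of the asparagine list below, and Got1 did not pass, at -0.04 ± 0.07 (limma, adjusted p = 0.644). That Asns has no match says only that these letters are not in this window, and a match is a description of the letters.

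**Figure D1:**
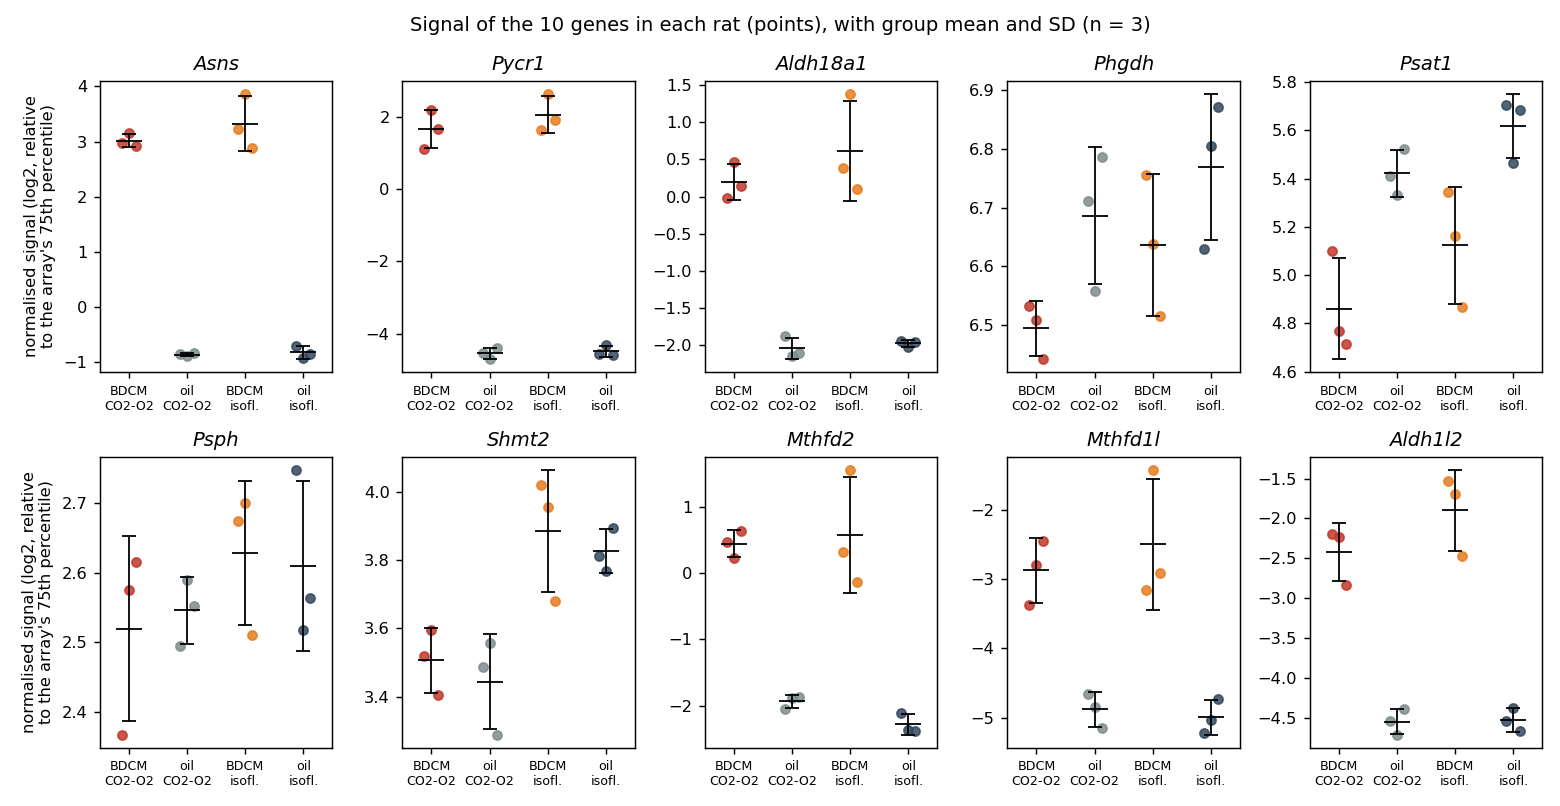
Normalised signal (log2, relative to the 75th percentile of the array, y axis) of the 10 genes in the 4 groups (x axis). Points are rats, and bars give the mean and SD of 3 rats. In Asns, Pycr1, Aldh18a1, Mthfd2, Mthfd1l and Aldh1l2 every BDCM rat lies above every oil rat, while in Psat1 every BDCM rat lies below every oil rat of its experiment. The y axes differ between genes.

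The serine route was not higher with BDCM. Phgdh, its first enzyme, had 6.53, 6.51 and 6.44 in BDCM rats and 6.71, 6.56 and 6.79 in oil rats under CO2-O2. The isoflurane values of Phgdh were 6.76, 6.64 and 6.52 in BDCM rats and 6.63, 6.81 and 6.87 in oil rats. The groups overlapped under isoflurane, and under CO2-O2 the BDCM rats lay just below the oil rats. The mean difference was -0.16 ± 0.07 (0.894-fold), and the second probe gave -0.19 ± 0.07.

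Psat1, the aminotransferase of the route, had 5.10, 4.77 and 4.72 in BDCM rats and 5.41, 5.33 and 5.52 in oil rats under CO2-O2. Under isoflurane it had 5.35, 5.16 and 4.87 in BDCM rats and 5.70, 5.47 and 5.68 in oil rats. All BDCM rats lay below all oil rats of the same experiment, with a mean difference of -0.53 ± 0.10 (0.694-fold). The second, much dimmer Psat1 probe gave -0.56 ± 0.10. Psph, the phosphatase that releases serine, had 2.37 to 2.62 in BDCM rats and 2.50 to 2.59 in oil rats under CO2-O2, and 2.51 to 2.70 in BDCM rats and 2.52 to 2.75 in oil rats under isoflurane. Its groups overlapped in both experiments, and the mean difference was -0.0039 ± 0.067. The summed proximal tubule markers given above were lower in the same BDCM rats, and 7 of the 8 fell in the fit across all features, for example the apical water channel Aqp1 by 1.31 and the endocytic receptor Lrp2 by 0.64 (limma, adjusted p = 8.87e-04 and 4.99e-04). Their part in the values of Phgdh and Psat1 was not tested.

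In the mitochondrial folate route the first enzyme and the later ones parted. Shmt2, which splits serine into glycine and a one-carbon unit, had 3.52, 3.60 and 3.40 in BDCM rats and 3.49, 3.56 and 3.29 in oil rats under CO2-O2. Under isoflurane it had 4.02, 3.96 and 3.68 in BDCM rats and 3.81, 3.77 and 3.90 in oil rats. Treated and control rats overlapped in both experiments, with a mean difference of 0.06 ± 0.08. The enzyme next in line, the dehydrogenase and cyclohydrolase Mthfd2, had 0.47, 0.23 and 0.63 in BDCM rats and -2.04, -1.88 and -1.88 in oil rats under CO2-O2. Under isoflurane Mthfd2 had 0.33, 1.56 and -0.14 in BDCM rats and -2.11, -2.36 and -2.38 in oil rats. The groups did not overlap, the mean difference was 2.62 ± 0.24 (6.16-fold), and the 3 of 5 Mthfd2 probes well above background on all 12 arrays gave differences between 2.56 and 3.11. The other 2 probes, which were well above background in 1 and 2 of the 3 oil rats under isoflurane, gave 3.23 and 2.85.

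Both outlets of the route were higher as well. Mthfd1l, which frees formate, had -3.37, -2.79 and -2.44 in BDCM rats and -4.65, -4.85 and -5.14 in oil rats under CO2-O2. The isoflurane values of Mthfd1l were -3.16, -1.42 and -2.91 in BDCM rats and -5.22, -5.04 and -4.73 in oil rats. The mean difference was 2.25 ± 0.29 (4.77-fold), without overlap but with the largest SE among the 10 genes. Aldh1l2, which oxidises the formyl unit to carbon dioxide and forms NADPH, had -2.20, -2.23 and -2.84 in BDCM rats and -4.54, -4.71 and -4.39 in oil rats under CO2-O2. Under isoflurane it had -1.53, -1.70 and -2.48 in BDCM rats and -4.54, -4.37 and -4.67 in oil rats. The difference was 2.38 ± 0.17 (5.19-fold) without overlap, and its second probe gave 0.51 ± 0.11, also without overlap. In oil rats the second probe was the brighter of the pair, with means of -3.57 under CO2-O2 and -3.28 under isoflurane against -4.55 and -4.53, and in BDCM rats the dimmer. With normexp correction the differences were 2.37-fold in Mthfd1l and 2.64-fold in Aldh1l2.

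**Figure D2:**
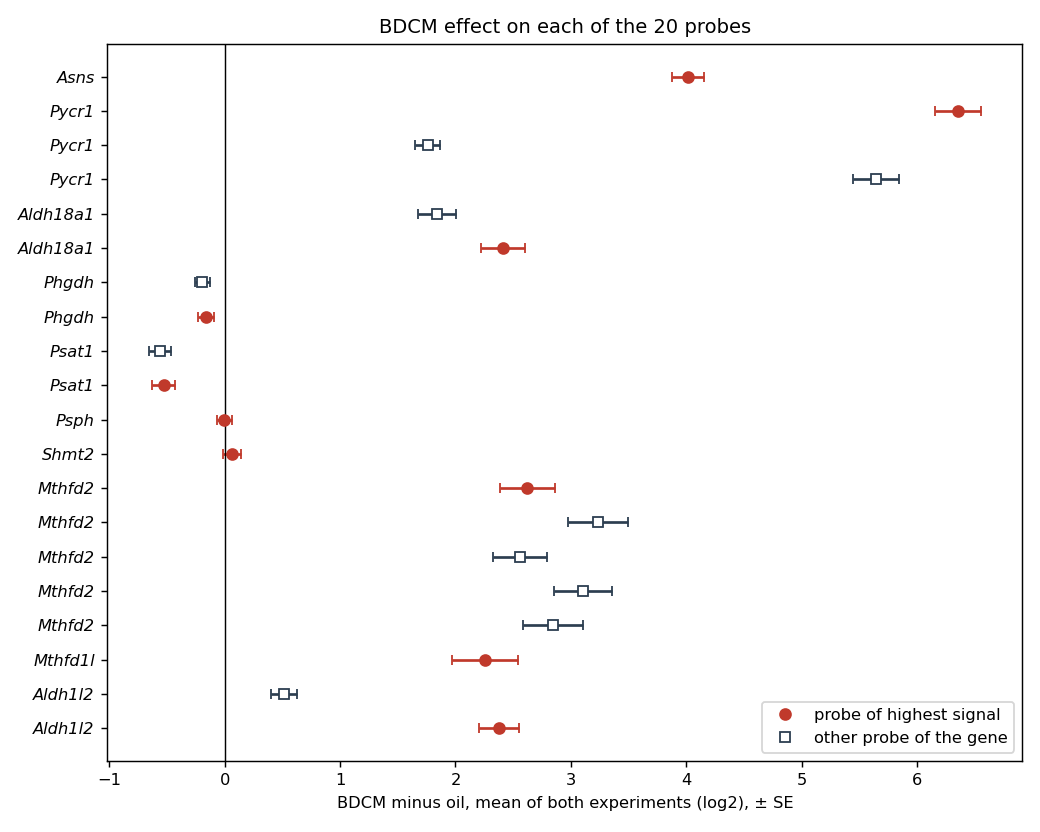
Difference BDCM minus oil (log2, x axis), averaged over both experiments, for each of the 20 probes (rows, named by gene), with bars for 1 SE (n = 6 rats per treatment). Filled circles are the probe of highest mean linear signal of a gene and open squares its other probes. The 3 probes of Pycr1 and the 2 of Aldh1l2 disagree in size and agree in sign.

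Counted over the set, 6 of the 10 genes had a mean difference of at least 2-fold upward, and the same 6 had every BDCM rat above every oil rat in both experiments. Over all 34213 features tested, 3.35% had such a difference and 13.5% such a separation. The 6 genes were Asns, Pycr1, Aldh18a1, Mthfd2, Mthfd1l and Aldh1l2, and 14 of the 20 probes, all of these 6 genes, were separated in this way. The median difference over the 10 genes was 2.31, against -0.04 over all features. Because these differences were in view when the genes were chosen, nothing is read from the counts.

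The size of the difference varied between BDCM rats. BDCM rat 2 of the isoflurane experiment had the largest difference from the mean oil rat of its experiment in 5 of the 6 genes, with 4.68 in Asns, 7.09 in Pycr1, 3.35 in Aldh18a1, 3.84 in Mthfd2 and 3.57 in Mthfd1l. In Aldh1l2 rat 1 of the same group was highest, with 3.00 against 2.83 in rat 2. The smallest difference was 3.71 in Asns (BDCM rat 3, isoflurane), 5.65 in Pycr1, 2.02 in Aldh18a1 and 1.51 in Mthfd1l (BDCM rat 1, CO2-O2 in each). Without BDCM rat 2 the isoflurane difference was 5.20-fold in Mthfd2, where it was 7.29-fold with it, and 4.63-fold in Aldh18a1, where it was 6.03-fold.

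**Figure D3:**
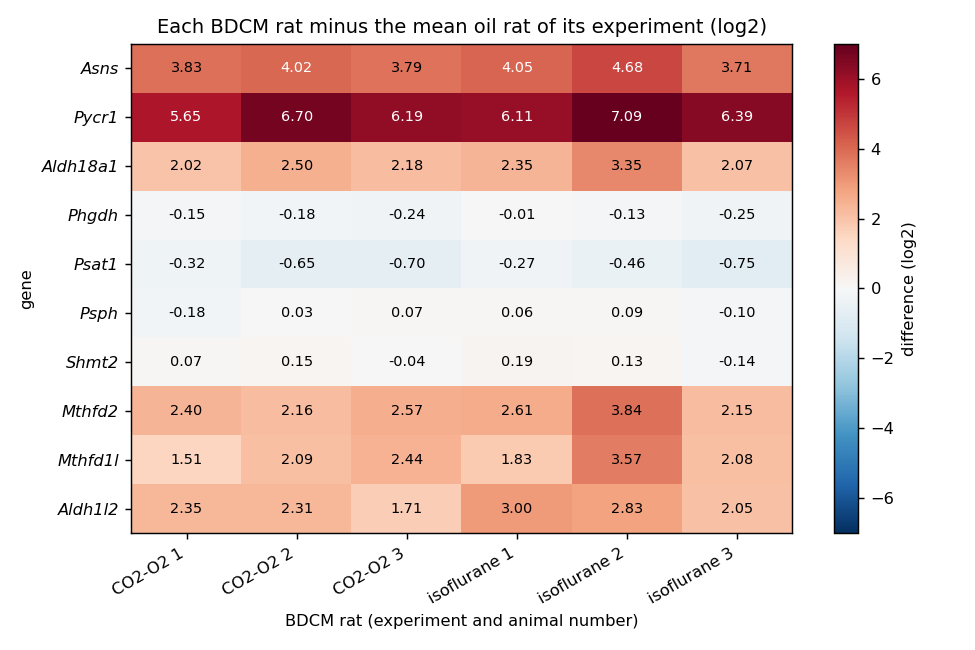
Difference between each BDCM rat (columns) and the mean of the 3 oil rats of its experiment, in log2 units (colour scale and printed value), for the 10 genes (rows). Rat 2 of the isoflurane experiment has the highest value in Asns, Pycr1, Aldh18a1, Mthfd2 and Mthfd1l, and the serine enzymes Phgdh, Psat1 and Psph stay between -0.75 and 0.09.

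Slides and scan days did not cross the 2 experiments, but a few held both treatments. On slide 1, 1 BDCM rat stood 4.02 above 3 oil rats in Asns and 6.70 above them in Pycr1. On slide 4, 2 BDCM rats stood 4.39 above 1 oil rat in Asns and 6.70 above it in Pycr1, and 0.43 below it in Psat1.

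The next question was whether the effect of BDCM differed between the experiments. The difference of effects, isoflurane minus CO2-O2, passed the test in 0 of the 10 genes (limma, adjusted over all features, lowest adjusted p = 0.934) and in 0 at an unadjusted p under 0.05. It passed in 0% of all features. The difference of effects ran from -0.0026 ± 0.15 in Shmt2 and 0.04 ± 0.13 in Psph to 0.50 ± 0.35 in Aldh1l2. The same rats give all 10 values, so their signs are not independent. The 95% confidence interval was -0.36 to 0.89 in Asns, -0.53 to 1.24 in Pycr1 and -0.79 to 1.76 in Mthfd1l. Differences of effects within these intervals are not excluded with 3 rats per group. The interval was tighter in Phgdh, at -0.24 to 0.36.

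The level of the genes in the 2 experiments was also compared within each treatment. Experiment, anaesthetic, slide and scan day cannot be told apart in this comparison, and the level of liver transcripts also differs between the experiments. Among BDCM rats, isoflurane against CO2-O2, 1 of the 10 genes was called, Shmt2, with 3.89 ± 0.18 under isoflurane and 3.51 ± 0.10 under CO2-O2 (SD, n = 3 each). It was higher by 0.38 ± 0.11 (SE, limma, adjusted p = 0.0381), and 17.1% of all features were called. Among oil rats Shmt2 was again the 1 gene called, with 3.83 ± 0.06 under isoflurane and 3.44 ± 0.14 under CO2-O2 (SD, n = 3 each), higher by 0.38 ± 0.11 (adjusted p = 0.0481), with 11.1% of all features called. One call in 10 genes is near these backgrounds. The Shmt2 call was past the threshold in 12 of 25 alternatives in BDCM rats and in 10 of 25 in oil rats, with adjusted p between 0.0191 and 0.137 and between 0.0207 and 0.168, so it rests on the settings. For the 6 genes that were higher with BDCM, the difference between the oil rats of the 2 experiments ran from -0.35 ± 0.34 in Mthfd2 to 0.06 ± 0.27 in Aldh18a1, and none of the 6 was called.

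Enzymes that sit beside these routes were tested in the same fit. Of 73 such genes on the lists, 67 were tested, and 3 rose with BDCM, 31 fell and 33 did not pass (limma, mean of both experiments), while 17.8% of all features rose and 20.3% fell. Their median difference was -0.24. The lists were drawn up with earlier results of these arrays known.

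Paralogues of the 10 genes were looked at one by one. Pycr3, a cytosolic relative of Pycr1, did not pass, at 0.12 ± 0.13 (adjusted p = 0.525). Mthfd1, the cytosolic enzyme that carries the activities of Mthfd2 and Mthfd1l, fell by 0.46 ± 0.11 (0.726-fold, adjusted p = 0.00821), a call that ends with the slide as a block (adjusted p = 0.108) or the scan day as a block (adjusted p = 0.0715). Mthfd2l, a mitochondrial paralogue of Mthfd2, had a difference of 0.29 ± 0.11 (adjusted p = 0.0635, but 0.046 with array median scaling and 0.0104 without BDCM rat 1 of the isoflurane experiment) and lay near the dim end of the array. Aldh1l1, the cytosolic counterpart of Aldh1l2, had -0.04 ± 0.09 (adjusted p = 0.780). Shmt1, the cytosolic counterpart of Shmt2, was not analysed here.

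In glycine, serine breakdown and folate metabolism 0 of 22 genes rose and 6 fell. A rise was seen in 7 of 26 alternatives, and 2 genes rose with quantile normalization or array median scaling. For this list and those that follow, the shares over all features are 17.8% that rose and 20.3% that fell. The glycine cleavage proteins Gcsh and Amt fell by 0.77 ± 0.07 (adjusted p = 2.15e-05) and by 0.58 ± 0.10 (adjusted p = 0.00144). The serine dehydratase-like gene Sdsl fell by 0.62 ± 0.15 (adjusted p = 0.00730). Slc25a32, the mitochondrial folate carrier, fell by 0.24 ± 0.07 (adjusted p = 0.0159), but not with the slide as a block (adjusted p = 0.152).

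Around asparagine, glutamine, glutamate and alanine, 2 of 12 genes rose and 6 fell. The mitochondrial alanine aminotransferase Gpt2 rose by 0.90 ± 0.12 (adjusted p = 2.54e-04). The asparaginase gene Aspg, whose product breaks asparagine down, had 3.79, 2.39 and 2.30 in BDCM rats and 4.49, 4.55 and 4.22 in oil rats under CO2-O2, and 1.66, 1.54 and 2.07 in BDCM rats and 3.79, 3.72 and 3.09 in oil rats under isoflurane. It fell by 1.68 ± 0.25 (0.311-fold, adjusted p = 6.39e-04) without overlap. Glutamine synthetase Glul fell by 0.93 ± 0.14, the GABA transaminase Abat by 0.89 ± 0.15, glutamate dehydrogenase Glud1 by 0.76 ± 0.08 and the amidase Nit2 by 0.60 ± 0.12 (adjusted p = 7.37e-04, 0.00122, 4.89e-05 and 0.00327). One Nit2 spot of a BDCM rat under CO2-O2 was an outlier and left out.

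Among genes of proline and ornithine, 1 of 12 rose and 6 fell. The dehydrogenase Aldh4a1, which turns the proline precursor back to glutamate, fell by 0.65 ± 0.09 (adjusted p = 3.65e-04), and ornithine aminotransferase Oat fell by 0.70 ± 0.12 (adjusted p = 0.00101). Hoga1, of hydroxyproline breakdown, fell by 0.57 ± 0.06, and the dipeptidase Pepd, which frees proline from peptides, fell by 0.55 ± 0.08 (adjusted p = 7.91e-05 and 5.83e-04). The mitochondrial arginase Arg2 fell by 0.72 ± 0.25 (adjusted p = 0.0430), with overlap in both experiments, and was past the threshold in 11 of 26 alternatives.

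Of methionine, betaine and transsulfuration, 0 of 21 genes rose and 13 fell, with a median of -0.66. Betaine-homocysteine methyltransferase Bhmt had 4.49, 4.78 and 4.13 in BDCM rats and 5.51, 6.14 and 5.87 in oil rats under CO2-O2, and 4.78, 3.91 and 4.60 in BDCM rats and 6.31, 5.53 and 5.76 in oil rats under isoflurane. It fell by 1.41 ± 0.20 (0.378-fold, adjusted p = 4.32e-04) without overlap. The choline dehydrogenase Chdh, which makes betaine, fell by 0.94 ± 0.09, and Dmgdh, which takes a one-carbon unit from dimethylglycine to folate, fell by 1.02 ± 0.15 (adjusted p = 2.53e-05 and 5.79e-04). Agxt2, a mitochondrial aminotransferase, fell by 0.98 ± 0.16, and Ahcyl2, a relative of adenosylhomocysteinase, fell by 1.03 ± 0.13 (adjusted p = 9.22e-04 and 2.20e-04). The proximal tubule markers given above fell in the same rats, and their part in these falls was not tested.

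**Figure D4:**
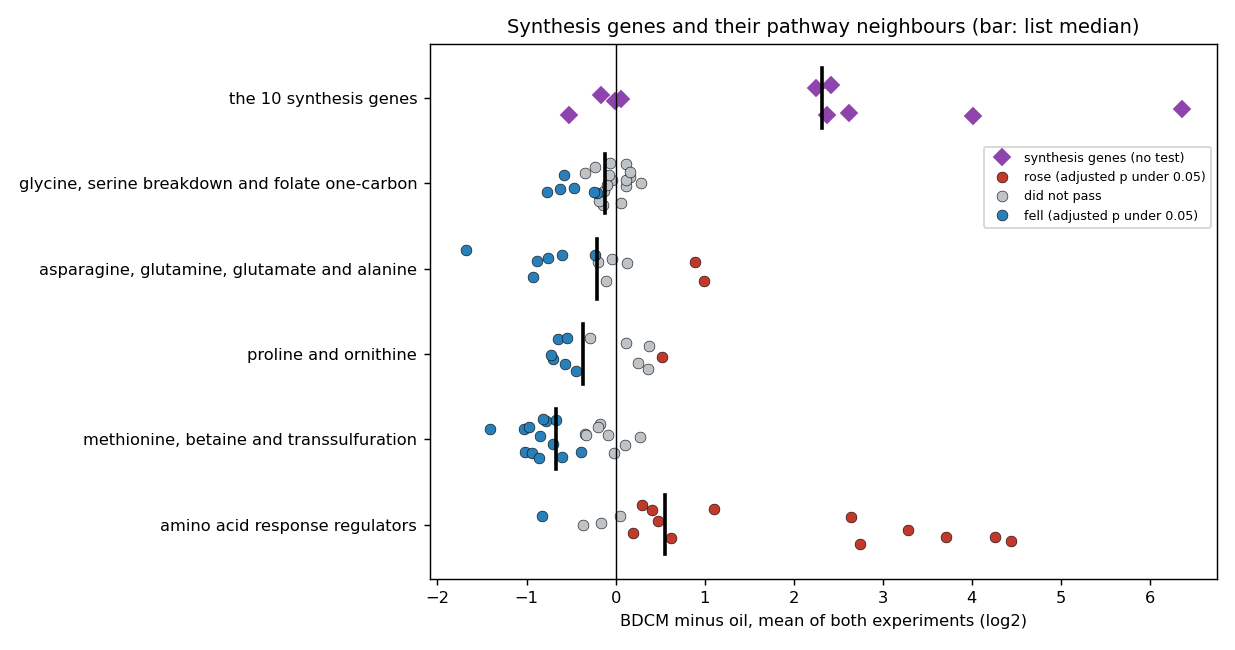
Difference BDCM minus oil (log2, x axis), averaged over both experiments, for the 10 synthesis genes (diamonds, no test) and the tested genes of 5 lists (rows). Each point is a gene, coloured by whether it rose, fell or did not pass (limma, adjusted p under 0.05), and bars mark the list median. The folate and methionine lists hold no gene that rose in the main fit shown, while 12 of 16 response regulators did.

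Regulators and partners of the amino acid response were the list with many rises. Of its 16 genes 12 rose, 1 fell and 3 did not pass, with a median of 0.55. ATF4's relative Atf5 had 3.41, 3.55 and 3.25 in BDCM rats and -0.06, -0.15 and -0.03 in oil rats under CO2-O2, and 3.75, 4.02 and 3.28 in BDCM rats and -0.14, -0.36 and -0.25 in oil rats under isoflurane. It rose by 3.71 ± 0.12 (13.1-fold, adjusted p = 1.43e-07) without overlap. The pseudokinase Trib3 rose by 4.44 ± 0.47, the stress cofactor Nupr1 by 4.26 ± 0.31, the cystine transporter subunit Slc7a11 by 3.28 ± 0.47 and the transcription factor Atf3 by 2.74 ± 0.39 (adjusted p = 6.04e-05, 4.54e-06, 4.60e-04 and 4.17e-04). With normexp background correction the rise was 11.9-fold in Trib3, where it was otherwise 21.6-fold, and 3.64-fold in Slc7a11, where it was otherwise 9.74-fold. Atf4 itself, which is known to be set mainly by translation, rose by 0.63 ± 0.15 (1.54-fold, adjusted p = 0.00977), a call that ends with the slide as a block (adjusted p = 0.0692). Chac1, which breaks down glutathione, rose by 0.20 ± 0.06 (adjusted p = 0.0296), but was past the threshold in 15 of 26 alternatives, with an adjusted p of up to 0.178, and the mean of its probes gave 2.83. As the mean of its probes exceeds 0.20, the other Chac1 probes together rose more than the probe used. Ddit4, an inhibitor of mTORC1 signalling, fell by 0.83 ± 0.18 (adjusted p = 0.00493). Its difference was -1.03 ± 0.25 under CO2-O2 and -0.63 ± 0.25 under isoflurane (limma, adjusted p = 0.0194 and 0.0945), with overlap under isoflurane. The rises in this list were known when it was drawn up, and they lend no independent support to the values of the 10 genes.

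Genes with a pattern like that of Asns were ranked by Pearson's r over the 12 arrays, among 11323 named genes well above background on every array. Since BDCM and oil rats form separate clusters in Asns, this r follows the treatment and is only a measure of likeness. It was highest for Atf5 (0.999), and among genes outside the set Rpl4 (0.994), Sec61b, Rps18 and Rps7 (0.993 each) came next, which encode ribosomal proteins and a subunit of the protein-conducting channel of the endoplasmic reticulum. Pycr1 (0.996) was rank 2, Aldh18a1 0.987, Aldh1l2 0.978, Mthfd2 0.977 and Mthfd1l 0.948, while Shmt2 had 0.20, Psph 0.05, Phgdh -0.57 and Psat1 -0.78. With each group's mean subtracted, so that rats of one group are set against each other, Aldh18a1 had 0.94 and was rank 6, Mthfd2 had 0.88, Mthfd1l 0.67, Pycr1 0.60, Aldh1l2 0.54, Psph 0.535, Shmt2 0.495, Psat1 0.347 and Phgdh 0.137. The 5 highest outside the set were then Pogk (0.964), Dlgap4 (0.958), Rpl31 (0.953), Cyp4b1 (0.953) and Nif3l1 (0.946). All 12 values of each gene share their arrays with those of Asns, and BDCM rat 2 of the isoflurane experiment was highest in Asns and in each of these 5 genes.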

How the data were processed

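Renal cortex RNA of 12 rats was measured, with 1 array per animal and 3 animals in each of 4 groups. Intensity values (processed signal) were extracted from the scans by the authors with Feature Extraction of Agilent, version 10.7 in the submitters' processing notes and 10.7.1.1 per the file headers, without scaling across arrays. The value table that was deposited is a linear ratio of processed signal to the 75th percentile of the array. Its 6 isoflurane columns equal their own arrays, and its 6 CO2-O2 columns equal the array of another animal of the same group, so it served as an alternative only. Animals are numbered by their scanner files.

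Here the processed signal was divided by the 75th percentile of each array and put on the log2 scale. Probes were named through their RefSeq accession with a gene table of assembly GRCr8 (27460 probes, 15284 symbols), and the probe annotation refers to build rn4, from which no coordinates were taken. The probe of highest mean linear signal over the 12 arrays stood for a gene, a choice that favours probes bright in either treatment. A feature was kept if it was well above background throughout at least 1 group (34213 of 49397). Spots marked as outliers were removed (54 missing values). limma 3.58.1 in R 4.3.3 fitted 1 mean per group over all 12 arrays, with Benjamini-Hochberg adjustment over all features and a threshold of 0.05, and the steps were tested on simulated data. A fold against a group not well above background is a lower bound: each of its signals was replaced by the lowest one well above background on that array where it lay under it.

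The members, the lists and the tests were chosen with earlier results of these data known. All 10 genes with all probes, their paralogues, up to 5 passing genes per direction of each list, and the 5 genes most like Asns by either measure are named, except a few genes that are not reported here. Atf4, Chac1, Got1, Aqp1, Lrp2, Alb, Tf, Apob and Ahsg were named after their values were seen. Alternatives changed the scaling, the background correction (normexp with an offset of 50, on median spot signals), the filter, the probe rule, the model and the threshold, and left out each animal in turn. Scan day as a block and leaving out both isoflurane rats of high albumin were added after the data were seen. Same-numbered animals of different groups had correlations of their deviations from -0.06 to 0.23 (18 pairs, 2 of them over 0.1). Animals of different number had -0.23 to 0.13 (36 pairs, 1 over 0.1). Low correlations cannot exclude a pairing in the design, and the main fit did not pair the animals. Of the neighbour genes, Shmt1, Gldc, Aldh7a1 and Mtap were not analysed here and the 4 probes of Gad1 did not pass the filter.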

Additional observations from a re-analysis of the deposited data

How the results depend on the processing

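The differences of 9 of the 10 genes between BDCM and oil rats, averaged over both experiments, kept their sign under each alternative, and that of Psph lay between -0.03 and 0.08. Over 26 alternatives the mean difference lay between 3.84 and 4.21 in Asns, 4.59 and 6.70 in Pycr1, 2.13 and 2.68 in Aldh18a1, 2.33 and 2.87 in Mthfd2, 1.25 and 2.49 in Mthfd1l, 1.40 and 2.69 in Aldh1l2, 0.02 and 0.16 in Shmt2, -0.64 and -0.46 in Psat1 and -0.40 and -0.12 in Phgdh. The mean of a gene's probes gave 24.0-fold in Pycr1 and 2.72-fold in Aldh1l2, as their other probes differed less. Without both isoflurane rats of high albumin the differences were 4.03 in Asns, 6.44 in Pycr1, 2.49 in Mthfd1l and -0.57 in Psat1.

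Of the neighbour genes 3 rose, but 5 did with quantile normalization, with array median scaling and with the scan day as a fixed block. The number that fell was between 24 and 35 over the alternatives, against 31. With 1 animal left out at a time, 3 or 4 rose and 28 to 32 fell. In the folate list, where 0 rose and 6 fell, a rise was seen in 7 of 26 alternatives. There 2 rose with quantile normalization and with array median scaling, and 3 fell with the slide as a fixed block. The proline list had 1 or 2 rises, and the response regulators 9 to 12 over the alternatives. Mthfd2l was past the threshold in 4 of 26 alternatives, with an adjusted p of 0.0104 without BDCM rat 1 of the isoflurane experiment, and Atf4 in 25 of 26. The difference of effects was called in 0 of the 10 genes under each alternative that could be run.

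The call of Shmt2 between experiments was 1 gene in oil rats and became 0 with array median scaling, without a filter on dim probes, with the mean of a gene's probes, with the slide as a random block, at an adjusted p of 0.01, without both isoflurane rats of high albumin and, with 1 animal left out at a time, in a range of 0 to 1. In BDCM rats 1 gene was called, and 0 with array median scaling, without a filter, with array weights, with only the groups compared, at an adjusted p of 0.01 and without both rats of high albumin, 2 with every probe its own feature (Shmt2, and Psat1 through 1 of its 2 probes, counting genes with at least as many probes called as not, which leaves out Pycr1 with its dimmest of 3 probes called, adjusted p = 0.0151), and 0 to 2 with 1 animal left out. With the animal number as a replicate block 3 neighbour genes rose and 31 fell, and 1 gene was called in oil rats and 1 in BDCM rats, and among the named genes the replicate block ended the call of Arg2 (adjusted p = 0.0569). Slide and scan day as fixed blocks could not be fitted for the comparisons between experiments, and a fit of only the groups compared does not apply to contrasts over all 4 groups. The fit with a fixed slide block takes the CO2-O2 difference from 1 BDCM rat and the isoflurane difference from 1 oil rat.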
